A study of Mus musculus with 16 samples.

Results

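The genes described here are 39 interferon-stimulated genes, the RNA readout of an interferon response, in liver of mice with changes in the telomerase RNA gene Terc. They were chosen by gene name and matched by Ensembl identifier to the 55357 genes of the count table. All 39 were found and all 39 passed the filter on low counts, which kept 14421 genes. They fall into 27 type I-like genes, whose usual inducers are interferon alpha and beta, and 12 gamma-like genes, which respond strongly to interferon gamma. The study measured RNA in 16 untreated liver libraries in 4 groups of 4. Livers labelled mTERC CUG/AUG form the group AUG, and those labelled mTERC 29_35del, a Terc that lacks 7 nucleotides at positions 29 to 35, form the group del7. Each has a wild-type group, called AUG_WT and del7_WT after the titles Terp-wt-AUG and Terp-del7-wt, and TERP is the name of a protein encoded within telomerase RNA. Strain, age and sex are not given in the sources used here, nor do the labels say that the 4 libraries of a group came from separate mice. P-values therefore cover only the spread among the deposited libraries, which may be technical. In their source labels the 8 wild-type libraries are numbered as 1 series. Gbp3, Gbp7 and Ifi44 share chromosome 3 with Terc. Reads of Terc are not analysed here, and genotypes were taken from the labels alone.

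Type I interferons signal through the receptor IFNAR and activate a complex with STAT2 and IRF9, which binds the interferon-stimulated response element in promoters of antiviral genes. Interferon gamma, made mainly by T cells and natural killer cells, signals through another receptor, and promoters of its targets carry the gamma-activated site. The classes overlap, since many genes answer to either ligand. In liver, hepatocytes, Kupffer cells and endothelial cells all carry interferon receptors, and basal expression of these genes is usually low without infection.

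Part of the members' promoters hold these elements, and 9 are printed because they hold the elements most plainly. RefSeq promoter windows, running from 250 bases before to 50 bases after a gene's start on GRCm38.p6, were at hand for 30 of the 39 members. Each was searched on both strands for GAAA, any 2 bases, then GAAA, a core of the response element called the element here, and for TTCNNNGAA, the gamma-activated site. Stretches upstream of the start are printed on the gene's strand with matches in capitals, where TTTC, any 2 bases, then TTTC is the element on the other strand and overlapping matches run together.
Isg15, chr4:156200859-156200918, minus strand: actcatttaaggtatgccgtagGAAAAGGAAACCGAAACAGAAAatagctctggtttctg
Ifit1, chr19:34640764-34640823, plus strand: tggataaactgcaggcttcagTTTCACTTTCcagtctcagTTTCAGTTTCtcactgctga
Ifit3, chr19:34583359-34583418, plus strand: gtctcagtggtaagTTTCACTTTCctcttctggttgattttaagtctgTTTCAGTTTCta
Ifit3b, chr19:34607755-34607814, plus strand: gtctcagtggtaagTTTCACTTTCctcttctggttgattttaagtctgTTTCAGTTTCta
Bst2, chr8:71537573-71537622, minus strand: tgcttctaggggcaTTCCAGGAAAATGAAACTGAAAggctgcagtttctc
Gbp7, chr3:142530216-142530295, plus strand: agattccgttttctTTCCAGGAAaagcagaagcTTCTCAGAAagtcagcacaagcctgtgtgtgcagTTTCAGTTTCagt
Igtp, chr11:58199496-58199545, plus strand: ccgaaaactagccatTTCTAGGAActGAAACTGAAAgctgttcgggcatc
Irgm2, chr11:58214887-58214936, plus strand: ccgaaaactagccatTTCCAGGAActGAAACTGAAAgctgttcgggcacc
Irf1, chr11:53769904-53769953, plus strand: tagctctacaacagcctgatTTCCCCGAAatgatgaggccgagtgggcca
The 60 bases printed for Ifit3 and Ifit3b are identical, and both carry 2 response elements. Isg15 and Bst2 have overlapping response elements that merge into 1 run, which in Bst2 begins with a gamma-activated site. In Gbp7, Igtp and Irgm2 a gamma-activated site lies upstream of the response element, while the stretch of Irf1 holds a gamma-activated site alone. The element was present in 18 of 30 members' windows (60%, exact 95% binomial interval 40.6% to 77.3%) and in 3.99% of the 27025 genes with a window. By class it was in 12 of 19 type I-like and 6 of 11 gamma-like members. TTCNNNGAA was present in 3 of 19 type I-like members (15.8%) and 5 of 11 gamma-like members (45.5%), against 9.55% of all genes, and the class intervals overlap (3.38% to 39.6% and 16.8% to 76.6%). The element followed by C was in 14 of 30 members (46.7%) and 0.944% of all genes. The windows of Cxcl9, Tap1, Psmb9, Irf7, Irf9, Oasl1, Oasl2, Ifi44 and Xaf1 held neither the element nor TTCNNNGAA. The matches found are letter matches and were not tested as binding sites.

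Libraries held 7714058 to 14629022 reads counted to genes. Values are counts scaled to a library size of 1000000 (CPM) with TMM factors. The first principal component, which took 34.5% of the variance, placed AUG_WT replicate 1 at 126.1, and the highest of the other 15 libraries was at 10.7. That library also held the highest summed markers of B and plasma cells (1255 CPM, others 37.2 to 338.8), T and natural killer cells (141.8 CPM, others 5.54 to 20.9) and dividing cells (372.9 CPM, others 7.02 to 24.8). Its summed hepatocyte markers were 40602 CPM against 89493 to 147203 CPM elsewhere, and all libraries had abundant Alb, the albumin gene, with 32414 to 130934 CPM. The comparisons of the members are therefore given with and without AUG_WT replicate 1. In bulk tissue, a change in RNA per cell and a change in the share of cells that express a gene cannot be told apart.

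Among the 16 livers the interferon-stimulated genes stood highest in AUG_WT replicate 1 and next in AUG replicate 2, for gamma-like genes most of all. With log2 CPM taken relative to each gene's own mean, the gamma-like genes averaged 1.92 in AUG_WT replicate 1 and 0.93 in AUG replicate 2, and -0.59 to 0.04 in the other 14 libraries. The type I-like genes averaged 0.99 and 0.49 in those libraries and -0.55 to 0.27 elsewhere. The lowest type I-like averages were -0.55 in AUG replicate 1, -0.52 in del7 replicate 3 and -0.47 in del7_WT replicate 1, so low libraries occurred in mutant and wild-type groups.

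**Figure D1:**
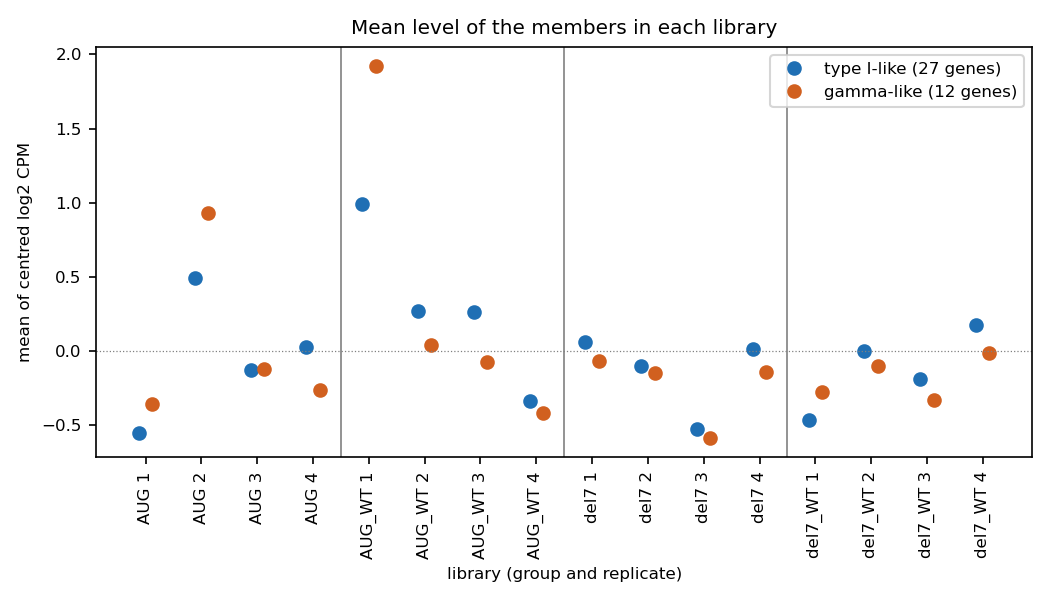
Mean centred log2 CPM (vertical axis) of the 27 type I-like genes (blue) and the 12 gamma-like genes (orange) in each of the 16 libraries (horizontal axis, by group and replicate), 1 point per library and class. AUG_WT replicate 1 is highest in both classes, at 0.99 and 1.92, and AUG replicate 2 is next.

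AUG_WT replicate 1 was the highest of the 16 libraries for 28 of 39 members, counting all 12 gamma-like and 16 of 27 type I-like genes, and for 28.9% of the 14421 genes tested. AUG replicate 2 was highest for 5 members, Ifih1, Ifit1, Ifit3b, Bst2 and Rtp4, and for 3.07% of all genes tested. The remaining 6 members peaked elsewhere, which were Stat2 and Isg15 in a del7_WT library, Usp18, Oasl1 and Rsad2 in other AUG_WT libraries and Mx2 in an AUG library. Without AUG_WT replicate 1, AUG replicate 2 was highest for all 12 gamma-like genes. The lowest library was del7 replicate 3 for 14 members, beside 4.06% of all genes tested, and AUG replicate 1 for 9, beside 7.07%.

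**Figure D2:**
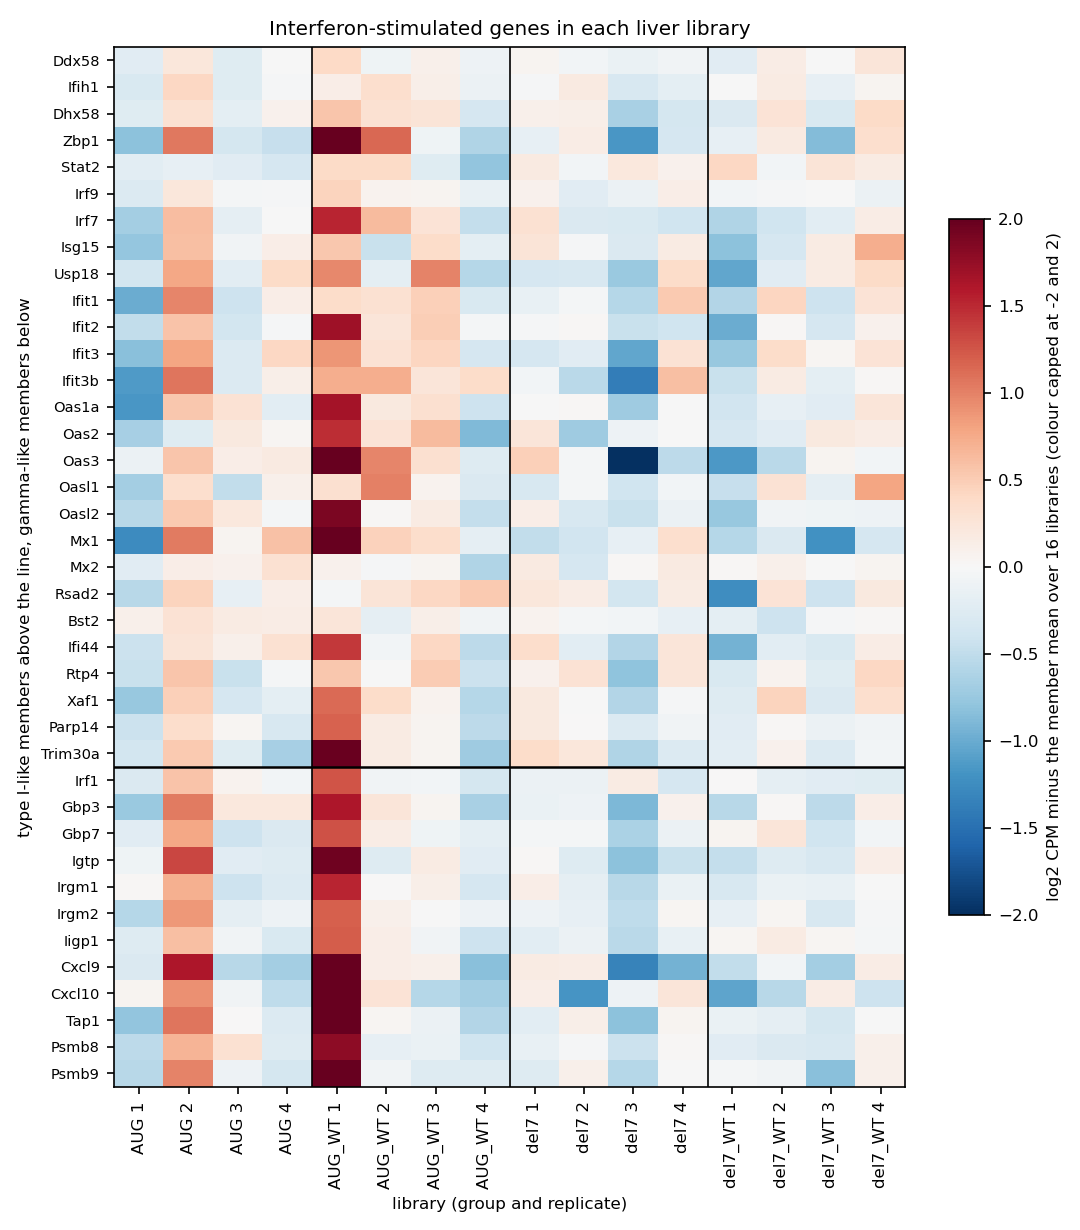
Heat map of log2 CPM minus the member's mean over 16 libraries (colour, capped at -2 and 2) for 39 genes (rows) in 16 libraries (columns, with lines between the groups). Rows above the horizontal line are type I-like and rows below it gamma-like; the column of AUG_WT replicate 1 is red in all 12 gamma-like rows and that of AUG replicate 2 is the next highest there.

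Per length, the members spanned a wide range of basal levels. Mean CPM per kilobase of merged exon over the 16 libraries was highest for Bst2 (72.8), Iigp1 (68.1), Igtp (22.4), Irgm2 (21.6) and Stat2 (14.8). It was lowest for Oas3 (0.386), Mx1 (0.557), Ifi44 (1.38) and Ifit3b (1.41). The SD of log2 CPM over the libraries ran from 0.18 for Irf9 and Bst2 to 1.05 for Cxcl10 and 1.16 for Cxcl9. In the type I-like class Oas3 (0.90), Zbp1 (0.85) and Mx1 (0.82) varied most, and in the gamma-like class Irf1 (0.40) varied least.

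In what follows, the 4 values of a group are CPM in its replicates 1 to 4. Among the sensors, Ddx58 encodes RIG-I and Ifih1 encodes MDA5, receptors of viral RNA in the cytoplasm. Dhx58 encodes their regulator LGP2, and Zbp1 encodes a sensor of Z-form nucleic acids linked to cell death. Ifih1 had 47.03, 77.3, 49.2 and 57.5 in AUG, 63.9, 73.7, 63.4 and 53.7 in AUG_WT, 57.3, 66.03, 46.5 and 50.8 in del7 and 57.9, 65.04, 52.05 and 60.5 in del7_WT. It was highest in AUG replicate 2 and AUG_WT replicate 2, lowest in del7 replicate 3 and AUG replicate 1, and all groups overlapped. For Dhx58 the values were 8.71, 12.8, 9.04 and 11.01 in AUG, 15.4, 12.8, 12.4 and 8.14 in AUG_WT, 11.1, 11.2, 6.53 and 8.09 in del7 and 8.41, 12.5, 8.31 and 13.6 in del7_WT. AUG_WT replicate 1 was the highest and del7 replicate 3 the lowest, with overlap between all groups. Ddx58 stayed within 37.7 to 59.1 CPM. Zbp1 ranged from 5.86 to 60.1 CPM, with 60.1 in AUG_WT replicate 1, 29.7 in AUG_WT replicate 2 and 27.98 in AUG replicate 2.

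The transcription factors were Stat2 and Irf9, partners in the complex that carries the type I signal, Irf7, which drives interferon genes themselves, and the gamma-responsive Irf1. Stat2 had 74.6, 76.4, 73.5 and 68.3 in AUG, 112, 112, 72.6 and 49.7 in AUG_WT, 97.6, 82.98, 100.0 and 90.8 in del7 and 115, 82.6, 103 and 96.4 in del7_WT. Its AUG_WT libraries alone spanned 49.7 to 112 CPM, which took in all 4 AUG values and 3 of the 4 values of del7_WT. Stat2 was as high in AUG_WT replicate 2 as in replicate 1, and del7 overlapped del7_WT. Irf9 ranged only from 31.03 to 51 CPM. Irf7 ranged from 20.5 to 94.8 CPM, highest in AUG_WT replicate 1, and Irf1 from 36 to 109 CPM, where AUG_WT replicate 1 was followed by AUG replicate 2 at 67.96.

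Isg15 encodes a ubiquitin-like protein attached to other proteins during infection, and Usp18 encodes the protease that removes it and dampens IFNAR signalling. For Isg15 the libraries gave 2.85, 7.68, 4.76 and 5.51 in AUG, 7.296, 3.603, 6.48 and 4.31 in AUG_WT, 6.01, 4.92, 4.04 and 5.599 in del7 and 2.73, 3.902, 5.58 and 8.41 in del7_WT. The highest was del7_WT replicate 4 and the lowest del7_WT replicate 1, so a single wild-type group held the whole range. Usp18 ranged from 3.57 to 15.1 CPM and was highest in AUG_WT replicates 3 and 1.

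The IFIT proteins bind foreign RNA and block its translation. Ifit3 had 4.89, 15.6, 7.33 and 11.9 in AUG, 16.6, 10.9, 12.1 and 7.02 in AUG_WT, 7.03, 7.59, 4.23 and 10.9 in del7 and 5.18, 11.5, 9.09 and 10.8 in del7_WT. AUG_WT replicate 1 and AUG replicate 2 were the highest, and del7 replicate 3 and AUG replicate 1 the lowest. Ifit2 had 5.25, 11.2, 5.71 and 7.26 in AUG, 24.6, 8.82, 10.6 and 7.18 in AUG_WT, 7.27, 7.51, 5.38 and 5.599 in del7 and 3.64, 7.53, 5.84 and 7.87 in del7_WT. The highest library was AUG_WT replicate 1 and the next AUG replicate 2, and the other 3 AUG_WT libraries overlapped AUG. Ifit1 (4.62 to 18.6 CPM) and Ifit3b (0.865 to 5.58 CPM) were instead highest in AUG replicate 2. Ifit3 and Ifit3b are neighbouring near-identical copies, and their separate values are uncertain.

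The OAS family makes an RNA signal that activates RNase L, and its OASL relatives act in RNA sensing and translation. Oasl1 had 6.93, 14.1, 7.896 and 11.97 in AUG, 14.03, 22.7, 11.7 and 9.099 in AUG_WT, 8.93, 10.9, 8.46 and 10.7 in del7 and 8.06, 13.8, 9.86 and 19.4 in del7_WT. AUG_WT replicate 2 and del7_WT replicate 4 were the highest, and AUG_WT replicate 1 was not set apart. Oas2 had 3.65, 4.95, 6.75 and 6.07 in AUG, 16.7, 7.21, 9.21 and 3.11 in AUG_WT, 7.03, 3.55, 5.48 and 5.85 in del7 and 4.62, 5.02, 6.75 and 6.53 in del7_WT. AUG_WT replicate 1 was the highest and AUG_WT replicate 4 the lowest of all 16. Oas1a (1.07 to 8.699 CPM), Oas3 (0.384 to 9.89 CPM) and Oasl2 (5.18 to 33.3 CPM) were also highest in AUG_WT replicate 1.

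Among other antiviral effectors, Bst2 encodes tetherin, which holds budding virus at the cell surface, Mx1 and Mx2 encode dynamin-like GTPases, and Rsad2 encodes viperin. Bst2 had 69.97, 79.4, 72.9 and 72.5 in AUG, 77.1, 57.9, 70.8 and 62.2 in AUG_WT, 68.7, 63.5, 62.5 and 58.1 in del7 and 56.95, 49.1, 64.4 and 66.3 in del7_WT. This was the steadiest of the antiviral effectors, with AUG replicate 2 highest and del7_WT replicate 2 lowest. AUG overlapped AUG_WT, and del7 overlapped del7_WT. Mx1 had 0.622, 3.79, 1.81 and 2.71 in AUG, 7.79, 2.46, 2.27 and 1.52 in AUG_WT, 1.19, 1.29, 1.54 and 2.24 in del7 and 1.12, 1.39, 0.649 and 1.34 in del7_WT. All 4 AUG_WT libraries lay above all 4 del7_WT libraries, while AUG overlapped AUG_WT and del7 overlapped del7_WT. RefSeq lists Mx1 and Mx2 of the reference strain as transcribed pseudogenes. Mx2 ranged from 5.03 to 9.497 CPM. Rsad2 ranged from 4.41 to 15.3 CPM, with its highest value in AUG_WT replicate 4 and its lowest in del7_WT replicate 1.

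The other type I-like genes were Parp14, an ADP-ribosyltransferase, Trim30a, a TRIM protein that restrains inflammatory signalling, Ifi44, the receptor transporter Rtp4 and the cell death factor Xaf1. Parp14 had 64.5, 110.4, 88.8 and 69.7 in AUG, 198, 96.8, 89.9 and 60.5 in AUG_WT, 99.7, 87.7, 71.7 and 82.9 in del7 and 74.1, 88.4, 79.95 and 82.8 in del7_WT. AUG_WT replicate 1 stood above the others, with AUG replicate 2 next. Trim30a had 11.9, 22.2, 13.03 and 9.66 in AUG, 61.6, 17.4, 16.1 and 9.34 in AUG_WT, 19.99, 18.2, 10.1 and 12.8 in del7 and 13.4, 16.4, 12.7 and 14.8 in del7_WT. AUG_WT replicate 1 was again far above the next library, AUG replicate 2, and the remaining libraries of all 4 groups overlapped. Ifi44 (3.99 to 21.3 CPM) and Xaf1 (4.27 to 16.4 CPM) were highest in AUG_WT replicate 1, and Rtp4 (8.07 to 21.04 CPM) in AUG replicate 2.

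The interferon-inducible GTPases attack vacuoles that hold intracellular pathogens, with Gbp3 and Gbp7 among the guanylate-binding proteins and Igtp, Irgm1, Irgm2 and Iigp1 among the immunity-related GTPases. Iigp1 had 318, 573, 361 and 306 in AUG, 875, 414, 359 and 285 in AUG_WT, 326, 350.2, 262 and 340.3 in del7 and 389, 426, 389.5 and 370.0 in del7_WT. AUG_WT replicate 1 and AUG replicate 2 were the highest, and all 4 del7 libraries lay below all 4 del7_WT libraries. Gbp7 had 35.8, 71.9, 31.4 and 34.1 in AUG, 101, 46.4, 39.3 and 36.6 in AUG_WT, 40.6, 40.8, 26.9 and 38.7 in del7 and 43.4, 49.8, 31.8 and 40.1 in del7_WT. The same pair of libraries was highest, del7 replicate 3 was lowest, and the groups overlapped. Igtp (22 to 152 CPM), Irgm2 (50.8 to 172 CPM), Irgm1 (35.2 to 149.7 CPM) and Gbp3 (8.55 to 50.02 CPM) had the same highest and next-highest libraries.

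Cxcl9 and Cxcl10 encode chemokines that draw CXCR3-bearing T cells. Cxcl9 had 8.71, 33.2, 7.23 and 6.62 in AUG, 127, 11.7, 11.5 and 5.91 in AUG_WT, 11.9, 11.9, 4.13 and 5.47 in del7 and 7.495, 10.2, 6.62 and 11.8 in del7_WT. AUG_WT replicate 1 was followed by AUG replicate 2, and the remaining 14 libraries lay between 4.13 and 11.9 CPM. Cxcl10 had 2.93, 5.47, 2.66 and 1.92 in AUG, 30.8, 3.41, 1.82 and 1.68 in AUG_WT, 3.08, 1.13, 2.59 and 3.36 in del7 and 1.26, 1.86, 3.12 and 2.06 in del7_WT. Only AUG_WT replicate 1 stood far out, and AUG replicate 2 at 5.47 CPM was next. Unstranded counting, which drops reads shared with genes on the other strand, gave 0.771 times the deposited total for Cxcl10.

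Tap1 encodes a subunit of the peptide transporter for MHC class I, and Psmb8 and Psmb9 encode catalytic subunits of the immunoproteasome. Psmb8 had 18.9, 43.8, 33.5 and 22.8 in AUG, 94.1, 24.2, 24.8 and 20.5 in AUG_WT, 24.6, 26.8, 20.2 and 27.8 in del7 and 23.3, 22.2, 21.8 and 29.2 in del7_WT. AUG_WT replicate 1 was highest, AUG replicate 2 was next, and the remaining libraries of all 4 groups overlapped. Its unstranded total was 0.712 of the deposited total. Tap1 (17.01 to 136 CPM) and Psmb9 (8.18 to 67.5 CPM) had the same highest and next-highest libraries.

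AUG livers were compared with AUG_WT livers to ask whether the CUG/AUG genotype went with another interferon state. With all 16 libraries, 37 of 39 members had lower fitted levels in AUG, and without AUG_WT replicate 1 the gamma-like genes pointed the other way. No member passed the threshold of 0.05 on the adjusted p of edgeR's quasi-likelihood test, beside 0.0277% of all genes. The median log2 fold change was -0.40 over type I-like genes (25 of 27 lower) and -0.42 over gamma-like genes (12 of 12 lower), beside -0.04 over all genes. Without AUG_WT replicate 1 it was -0.07 (16 of 27 lower) and 0.36 (12 of 12 higher), beside 0.01 over all genes. There too 0 members passed (0.0274% of all genes did), and 0 had an unadjusted p under 0.05 (5.92% of all genes did).

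The smallest p in each class belonged to Ifit2, Oas2, Cxcl10 and Cxcl9. Ifit2 averaged 7.34 ± 2.68 CPM over the AUG libraries and 12.8 ± 7.97 CPM over the AUG_WT libraries (SD, n = 4 each), and its edgeR log2 fold change was -0.81 (SE 0.36, adjusted p = 0.5605). Without AUG_WT replicate 1 it was -0.25 (SE 0.28, adjusted p = 0.928). Oas2 had a log2 fold change of -0.76 (SE 0.38, adjusted p = 0.589) and -0.25 without that library. Cxcl10 averaged 3.25 ± 1.54 CPM over the AUG libraries and 9.43 ± 14.3 CPM over the AUG_WT libraries (SD, n = 4 each), where 1 library made the SD larger than the mean. Its log2 fold change of -1.56 (SE 0.76, adjusted p = 0.586) turned to 0.50 without AUG_WT replicate 1. Cxcl9 turned likewise from -1.5 (SE 0.81, adjusted p = 0.619) to 0.55. By role, the signs were the same in all 6 GTPases, 2 chemokines and 3 antigen processing genes, lower with that library and higher without it.

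Ifit2 was the only member with an unadjusted p under 0.05, beside 7.37% of all genes that were lower at that p. That count was 13 without AUG replicate 2 or without AUG_WT replicate 4, 5 without AUG_WT replicate 3, 4 without AUG_WT replicate 2 and 0 without any other library of the comparison. DESeq2 put 1 member and limma 0 members under that p, and neither called a member after adjustment. With AUG_WT replicate 1 kept, the share of all genes at that p was not computed for these alternatives. Their counts are therefore not read as particular to the members. The groups overlapped for all 39 members, with or without AUG_WT replicate 1; they did not for 2.05% of all genes, and for 5.48% without that library. AUG_WT replicate 1 and AUG replicate 2 were also left out together. The median was then -0.29 over type I-like genes (24 of 27 lower) and -0.10 over gamma-like genes (8 of 12 lower). Over all genes it was 0.004, with 7161 of 14528 lower. In that fit 0 members were called, beside 5 of all genes.

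**Figure D3:**
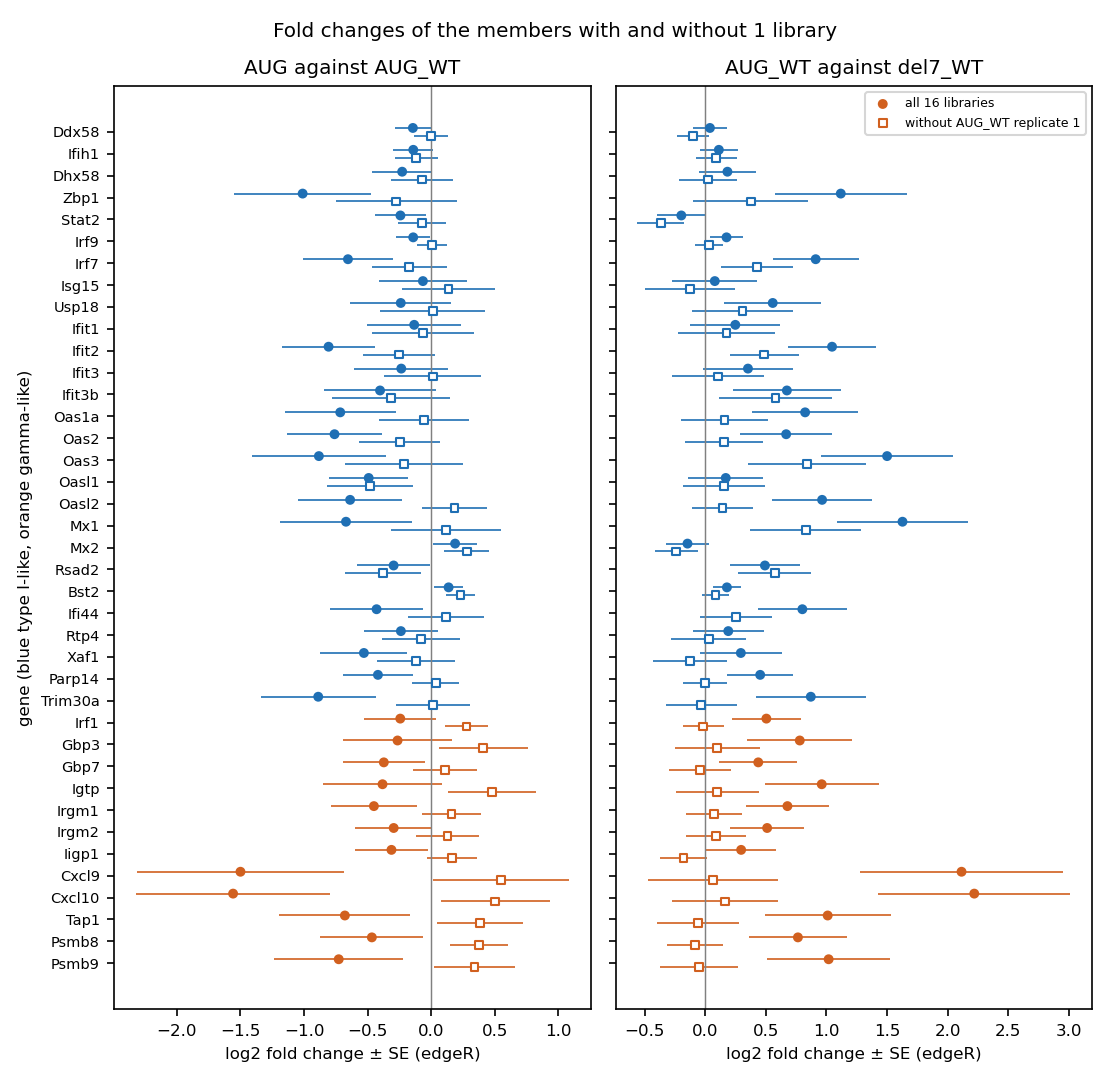
Log2 fold change with its SE (horizontal axis, edgeR) for 39 members (vertical axis; blue type I-like, orange gamma-like) in AUG against AUG_WT (left) and AUG_WT against del7_WT (right). Filled circles use all 16 libraries and open squares leave out AUG_WT replicate 1; on the left all 12 orange circles lie below 0 and all 12 orange squares above it.

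No difference between del7 and del7_WT livers was detected in these genes. Medians were -0.005 over type I-like genes (12 of 27 higher, 15 lower) and -0.02 over gamma-like genes (4 of 12 higher, 8 lower), beside 0.0001 over all genes. Adjusted p in edgeR's test was 1 for all 39 members, and 0% of all genes passed. At an unadjusted p under 0.05 there were 0 members, beside 1.92% of all genes, and DESeq2 and limma also gave 0. The smallest p of each class were those of Oasl1, Dhx58, Iigp1 and Gbp7, with log2 fold changes of -0.39 for Oasl1 (SE 0.31), -0.30 for Iigp1 (SE 0.29), -0.21 for Dhx58 (SE 0.24) and -0.17 for Gbp7 (SE 0.32). Iigp1 averaged 319.6 ± 39.7 CPM over the del7 libraries and 393.6 ± 23.5 CPM over the del7_WT libraries (SD, n = 4 each). It was the only member of 39 whose del7 and del7_WT libraries did not overlap, beside 4.01% of all genes (4.00% without AUG_WT replicate 1). Leaving out that library gave 0 members at either threshold again, beside 0% of all genes adjusted and 5.34% unadjusted. All 6 GTPases and all 4 sensors had lower fitted levels in del7, at -0.30 to -0.02 and -0.25 to -0.09, and other roles were mixed. All 9 Kupffer cell markers had higher fitted levels in del7 (median 0.80, 6 at an unadjusted p under 0.05 and 0 adjusted), and their sums were 399.6 to 649.0 CPM in del7 and 244.6 to 392.8 CPM in del7_WT. The 4 neutrophil markers tested were also higher (median 1.28, 1 at that p, 0 adjusted), with sums of 6.92 to 14.8 CPM in del7 and 3.12 to 5.72 CPM in del7_WT. The part of these markers in the members' values was not tested. With all 8 wild types as control, the gamma-like median of del7 was -0.46 and the type I-like median -0.33; with AUG_WT replicate 1 left out of that control they were -0.05 and -0.09. For the simulated del7 comparison the test found 41.4% of 2-fold and 17.6% of 1.5-fold changes, so changes of that size could be missed. Those changes were seeded in genes drawn at random from all tested genes. The members' SE in this comparison ran from 0.11 for Bst2 to 0.83 for Cxcl9, and the share found among members was not estimated.

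The effect of AUG minus the effect of del7 tests whether the 2 genotypes differ in their interferon-stimulated genes. This difference uses the AUG_WT libraries, as the AUG comparison does, and moved with AUG_WT replicate 1 in the same way. Its median was -0.31 over type I-like genes (24 of 27 lower) and -0.37 over gamma-like genes (12 of 12 lower), beside -0.04 over all genes. Leaving out AUG_WT replicate 1 gave -0.02 (17 of 27 lower) and 0.35 (12 of 12 higher), beside 0.01 over all genes. With AUG replicate 2 left out as well, the medians were -0.21 (21 of 27 lower) and -0.08 (7 of 12 lower), beside 0.01 over all genes. With all 16 libraries, no member passed edgeR's adjusted p (0.00693% of all genes did). There 0 members were under an unadjusted p of 0.05 in edgeR, DESeq2 or limma, beside 5.21% of all genes in edgeR. Without AUG_WT replicate 4 there were 4 and without AUG replicate 2 there was 1. For those fits the share of all genes at that p was not computed, so the counts are not read as particular to the members. The smallest p were those of Ifit2 at -0.86 (SE 0.52, adjusted p = 0.869), Trim30a at -0.98 (SE 0.64, adjusted p = 0.873), Cxcl10 at -1.865 (SE 1.11, adjusted p = 0.869) and Cxcl9 at -1.40 (SE 1.16, adjusted p = 0.885), all as log2 values from edgeR. With AUG_WT replicate 1 left out these were -0.30, -0.07, 0.20 and 0.66, and 0 members passed (0.0137% of all genes), also unadjusted (3.02% of all genes).

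The wild-type groups, which are labelled WT, were compared with each other as a reference for differences without a mutation. AUG_WT had higher fitted levels than del7_WT for 37 of 39 members, and the medians of both classes were smaller without AUG_WT replicate 1. Median log2 fold changes were 0.45 over type I-like genes (25 of 27 higher) and 0.77 over gamma-like genes (12 of 12 higher), beside 0.03 over all genes. With that library left out they were 0.14 (20 of 27 higher) and 0.02 (6 of 12 higher), beside -0.004 over all genes. No member passed edgeR's adjusted p, beside 0.0347% of all genes. An unadjusted p under 0.05 was reached by 8 members, all higher in AUG_WT (6 type I-like and 2 gamma-like), beside 9.23% of all genes higher. The count was 8 in DESeq2 and 4 in limma. It was 20 without AUG_WT replicate 4, 13 without AUG_WT replicate 2 or 3, and 4 without del7_WT replicate 1. For those fits and tools the share of all genes at that p was not computed, so these counts are not read as particular to the members. Without AUG_WT replicate 1 the count of members was 0, beside 7.47% of all genes, and 0 members passed after adjustment, beside 0.0686%. These libraries also enter the AUG comparison, so the comparisons are not independent.

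Mx1 had the smallest p, with 3.51 ± 2.88 CPM over the AUG_WT libraries and 1.13 ± 0.339 CPM over the del7_WT libraries (SD, n = 4 each) and an edgeR log2 fold change of 1.63 (SE 0.54, adjusted p = 0.291). Without AUG_WT replicate 1 it was 0.83 (SE 0.46, adjusted p = 0.746). Mx1 and Ifit3b were the 2 members whose wild-type groups did not overlap, with or without that library, beside 3.53% of all genes (7.76% without that library). Both gaps were narrow and rest on few reads. The closest Mx1 libraries had 1.52 CPM (AUG_WT replicate 4, 19 reads) and 1.39 CPM (del7_WT replicate 2, 15 reads). For Ifit3b they had 3.07 CPM (AUG_WT replicate 3, 27 reads) and 2.88 CPM (del7_WT replicate 2, 31 reads). Ifit2 gave 1.05 (SE 0.37, adjusted p = 0.311) and 0.49 without AUG_WT replicate 1. The chemokines moved most between the 2 fits, Cxcl10 from 2.22 (SE 0.79, adjusted p = 0.316) to 0.16 and Cxcl9 from 2.11 (SE 0.83, adjusted p = 0.3402) to 0.06. All 5 OAS genes and all 4 IFIT genes were above 0 in either fit, at 0.14 to 0.84 and 0.10 to 0.58 without that library, and none passed. For the 3 antigen processing genes the values were 0.76 to 1.02 with it and -0.08 to -0.05 without it.

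The members were not all equally high in AUG_WT replicate 1 and AUG replicate 2. Log2 CPM in AUG_WT replicate 1 minus the mean of the other 3 AUG_WT libraries was above 1 for all 12 gamma-like genes (median 1.88, 1.19 for Irgm2 to 3.75 for Cxcl9) and for 12 of 27 type I-like genes (median 0.76), beside 15.6% of all genes (median 0.03). Cxcl10 (3.71), Tap1 (2.40), Psmb9 (2.38) and Trim30a (2.15) were among the largest. Several antiviral genes were closer to the other AUG_WT libraries, with Ifit1 at 0.21, Ifit3b at 0.28, Oasl1 at 0.06, Ifih1 at 0.02 and Rsad2 at -0.43. In AUG replicate 2, the difference from the other 3 AUG libraries had medians of 1.12 for gamma-like genes (12 of 12 higher) and 0.69 for type I-like genes (26 of 27 higher), beside -0.02 for all genes. That library was the highest of its group for 36 of 39 members, beside 23.9% of all genes. There Ifit3b (1.5), Ifit1 (1.40) and Ifit3 (1.03) were as far up as Gbp7 (1.09) and Psmb9 (1.33), and Cxcl9 (2.13) and Zbp1 (1.60) led.

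Set directly against each other, AUG_WT replicate 1 was higher than AUG replicate 2 for 12 of 12 gamma-like genes (median log2 difference 0.75) and 18 of 27 type I-like genes (median 0.26), beside 0.08 over all genes. The difference was 2.46 for Cxcl10, 1.93 for Cxcl9 and 1.72 for Oas2, and -0.61 for Ifit1, -0.48 for Rsad2 and -0.35 for Ifit3b. These compare 2 libraries that were singled out after their values were seen, and carry no test.

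**Figure D4:**
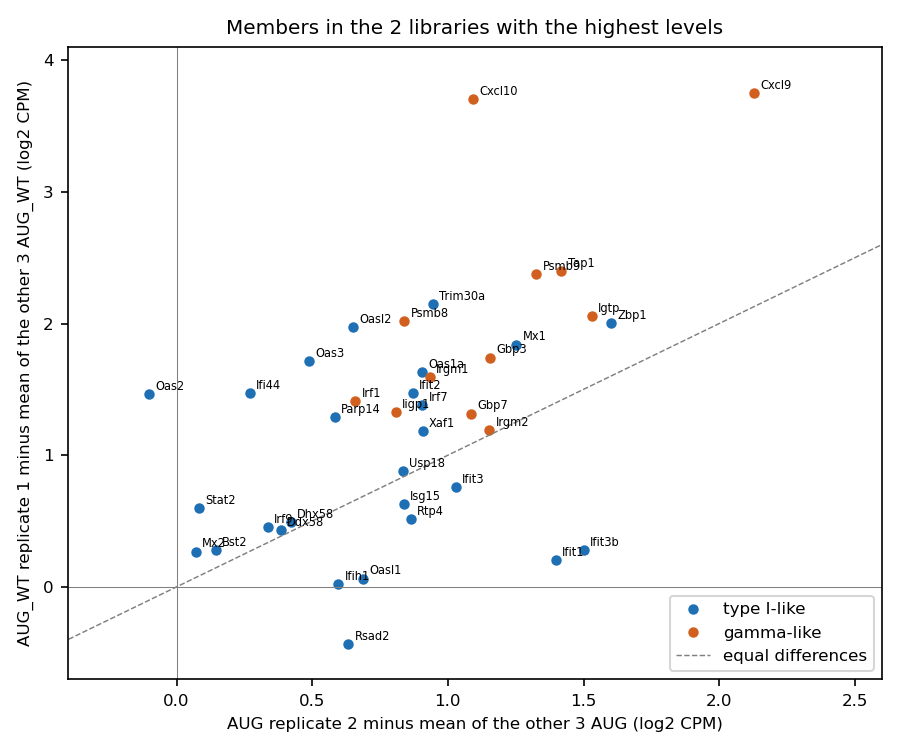
Each point is 1 of 39 members: its log2 CPM in AUG replicate 2 minus the mean of the other 3 AUG libraries (horizontal axis) and in AUG_WT replicate 1 minus the mean of the other 3 AUG_WT libraries (vertical axis), with type I-like genes in blue and gamma-like genes in orange. Points above the dashed line of equal differences, such as Cxcl10 and Oas2, were set apart more in AUG_WT replicate 1, and those below it, such as Ifit1, Ifit3b and Rsad2, more in AUG replicate 2.

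Other libraries were low across the members. AUG_WT replicate 4 was the lowest of its group for 33 of 39 members, beside 23.4% of all genes, with a median difference of -0.87 from the other 3. Those 3 include AUG_WT replicate 1, the highest library, and the difference was not taken without it. Relative to each gene's own mean over all libraries, AUG_WT replicate 4 averaged -0.34 over type I-like and -0.42 over gamma-like genes. AUG replicate 1 was the lowest of its group for 30 of 39 (28.3% of all genes), with medians of -0.66 over type I-like genes and -0.45 over gamma-like genes. The libraries it was set against include AUG replicate 2, which was high. Relative to each gene's own mean, AUG replicate 1 averaged -0.55 and -0.35 in the 2 classes. del7 replicate 3 was the lowest of its group for 30 of 39 members as well, beside 23.9% of all genes.

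Around the members, the pathway was read from lists of genes other than these 39. Of 20 interferon ligand genes, 0 passed the filter on low counts. Ifng, the gene of interferon gamma, had 29 reads in all, of which 25 were in AUG_WT replicate 1, 2 in AUG replicate 2 and 2 in del7 replicate 2. Ifnb1, the gene of interferon beta, had 0 reads in 16 libraries, which allows up to 3 reads by counting error, and no alpha interferon gene had more than 1. No gene of the lists that follow passed edgeR's adjusted p in any comparison, with or without AUG_WT replicate 1.

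Among 28 other gamma targets tested, the median was -0.55 in AUG against AUG_WT (25 lower) and 0.13 without AUG_WT replicate 1 (22 higher), beside -0.04 and 0.01 over all genes. At an unadjusted p under 0.05, 4 of the 28 were lower, beside 7.37% of all genes, and without that library 1 gene had such a p, beside 5.92% of all genes. Ciita, the activator of MHC class II genes, had 5.42, 22.8, 8.18 and 5.19 CPM in AUG and 258, 7.02, 7.05 and 5.99 CPM in AUG_WT, and its edgeR log2 fold change there was -2.75 (SE 1.01, adjusted p = 0.5605), and 0.65 (SE 0.41, adjusted p = 0.869) without AUG_WT replicate 1. In AUG_WT replicate 1 these 28 genes stood 1.75 above the other AUG_WT libraries in the median (27 higher), and in AUG replicate 2 0.90 above the other AUG libraries (27 higher). For 37 other type I targets tested, the median was -0.36 in AUG (35 lower, 8 at an unadjusted p under 0.05, beside 7.37% of all genes) and -0.02 without AUG_WT replicate 1 (21 lower, 3 at that p, beside 5.92% of all genes in either direction). Ifi213 and Trim34a had the smallest p there, with edgeR log2 fold changes of -2.94 (SE 0.84, adjusted p = 0.5605) and -1.62 (SE 0.48, adjusted p = 0.5605). Leaving out AUG_WT replicate 1, they were -1.38 (SE 0.62, adjusted p = 0.832) and -1.20 (SE 0.47, adjusted p = 0.791). Slfn8, a Schlafen family gene, had the smallest adjusted p of these lists, at 2.72 (SE 0.59, adjusted p = 0.189) for AUG_WT against del7_WT and 1.49 (SE 0.34, adjusted p = 0.179) without AUG_WT replicate 1. In AUG_WT replicate 1 the 37 genes stood 1.00 above the rest of the group in the median, and in AUG replicate 2 0.47 above.

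Receptors and JAK-STAT signalling, with 14 of 16 genes tested, had a median of -0.15 in AUG (13 lower, 2 at an unadjusted p under 0.05), and sensing and induction, with 20 of 20 tested, -0.32 (18 lower, 5 at that p), beside 7.37% of all genes lower at that p. Socs1, a feedback inhibitor of cytokine receptors, had 16.3 and 1.26 CPM in AUG_WT replicate 1 and AUG replicate 2. Its values in the other libraries are not printed, so these alone do not show whether either library was raised. The medians of the receptor and sensing lists were, with AUG_WT replicate 1 left out, 0.10 and 0.02. There 1 gene of each was higher at an unadjusted p under 0.05, beside 5.92% of all genes in either direction. In del7 against del7_WT, the medians of the 4 lists were 0.11, 0.01, 0.06 and 0.07 in the order given.

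Markers of several other cell types were high in AUG_WT replicate 1 and some of them in AUG replicate 2, and their part in the result was not tested. In AUG_WT replicate 1, defining markers of B cells were 31.7 (Cd79a) and 48.7 CPM (Cd79b), of T cells 20.1 (Cd3e) and 8.28 CPM (Cd3d), and of dividing cells 228 (Mki67) and 104 CPM (Top2a). In AUG replicate 2 the same markers were 3.68, 6.102, 2.52, 1.16, 8.21 and 5.37 CPM, and the summed T and natural killer cell markers of 20.9 CPM were the highest after AUG_WT replicate 1. Summed Kupffer cell markers were 956.5 CPM in AUG_WT replicate 1 and 815.8 CPM in AUG replicate 2, against 244.6 to 649.0 CPM in the other libraries, with Clec4f at 128 and 154 CPM and Vsig4 at 51.98 and 58.3 CPM. Conventional dendritic cell markers summed to 98.1 and 32.7 CPM in that pair, with 26.5 to 36.9 CPM in del7 and 20.2 to 26.4 CPM in del7_WT, and neutrophil markers to 30.9 and 16.8 CPM. Markers of B and plasma cells and of dividing cells reached 84.9 and 16.1 CPM at most in AUG, and 338.8 and 24.8 CPM in AUG_WT without replicate 1. Of 12 T and natural killer cell markers and 9 Kupffer cell markers, 0 were at 0 counts in either library. Plasmacytoid dendritic cells, a main source of type I interferon, had Siglech at 1.68 and 1.68 CPM and Ccr9 at 1.47 and 1.47 CPM there. Their list of 8 markers, which holds the member Bst2, summed to 350.8 CPM in AUG_WT replicate 1, 139.4 CPM in AUG replicate 2 and 103.4 to 135.7 CPM elsewhere. In AUG_WT replicate 1 the endothelial markers Stab2 and Clec4g were at 100.2 and 33.6 CPM, below all other libraries. The stellate cell marker Reln was at 119.7 CPM there. Of the single markers named here, only Stab2 and Clec4g are set against the other libraries. The values of the rest alone do not show whether either library was raised. Summed stellate cell markers were 655.1 CPM in AUG_WT replicate 1, within the 478.6 to 658.5 CPM of the others. Recruited monocyte markers summed to 2407 CPM in AUG_WT replicate 1, below the 2817 to 4108 CPM of the others, and to 3861 CPM in AUG replicate 2. Of the 4 monocyte markers tested, 3 had higher fitted levels in AUG_WT than in del7_WT and 1 had a lower level.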

How the data were processed

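RNA of 16 mouse liver libraries was measured after ribosomal RNA depletion with a directional kit, from 10 mg of tissue and 550 ng of RNA, per the labels' protocols. The submitters' processing notes name cutadapt 2.10, STAR 2.7.9a and the build GRCm39; for the gene annotation they name no release. The deposited values are whole-number counts per gene, not normalized, and in all 16 libraries the table of the series matched the reverse-strand counts of the per-library tables. GENCODE M21 on GRCm38 gave names for 52081 genes, chromosomes and exon lengths, so no gene coordinates on GRCm39 are printed. STAR's gene counts take uniquely aligned reads, and copies such as Ifit3 and Ifit3b can lose some.

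The tests used edgeR 4.0.16 (R 4.3.3): filterByExpr with a minimum count of 10 (14421 genes; 14582 without AUG_WT replicate 1), TMM, glmQLFit and glmQLFTest with 1 mean per group over all libraries (12 residual degrees of freedom). Tests are two-sided, p-values are Benjamini-Hochberg adjusted over all tested genes with a threshold of 0.05, and log2 CPM carries a prior count of 2. DESeq2 1.42.0 and limma 3.58.1 were alternatives. The members, lists and rules were chosen with earlier results of these data known; leaving out AUG_WT replicate 1 and AUG replicate 2 together, and the control of 7 wild types, were added after seeing the data. Named in full were the highest member per kilobase of each role and the 2 members of each class with the smallest p in a comparison. From other lists at most 2 genes with the smallest p, and the first 2 markers of a cell type, were named; Socs1 and the ligands were chosen after their values were seen. On simulated counts of 14301 genes, the share of seeded changes found in the AUG comparison was 11.9% at 1.5-fold, 41.4% at 2-fold and 77.4% at 4-fold. The changes were seeded in genes drawn at random, so these shares are not those of the members. Intervals for shares are exact binomial at 95% and cover counting error only. No 2 libraries of a group agreed within sampling noise.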

Additional observations from a re-analysis of the deposited data

Results flagged for a closer look

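In each group of 4, a gene was noted where its highest or lowest library lay apart from the other 3 by Dixon's criterion at 95% (gap over range above 0.829), which chance meets in about 1 in 20 groups. Values are CPM in the library set apart, against the range of the other 3. In AUG_WT replicate 1, 13 of 39 members were set apart high, beside 11.6% of all genes in that library. The gamma-like ones were Irf1 (109 against 36 to 44.3), Gbp7 (101 against 36.6 to 46.4), Igtp (152 against 32.7 to 44.1), Irgm1 (149.7 against 41.2 to 56.3), Irgm2 (172 against 70.3 to 81.3), Cxcl9 (127 against 5.91 to 11.7), Cxcl10 (30.8 against 1.68 to 3.41), Tap1 (136 against 19.9 to 30.8), Psmb8 (94.1 against 20.5 to 24.8) and Psmb9 (67.5 against 12.3 to 14.03). The type I-like ones were Oasl2 (33.3 against 6.38 to 10), Mx1 (7.79 against 1.52 to 2.46) and Trim30a (61.6 against 9.34 to 17.4). AUG replicate 2 was set apart high for 4 members, beside 1.14% of all genes in that library. They were Zbp1 (27.98 against 7.47 to 10.5), Gbp7 (71.9 against 31.4 to 35.8), Igtp (99.3 against 32.8 to 36.7) and Cxcl9 (33.2 against 6.62 to 8.71). In del7 replicate 1 Irf7 was high (40.7 against 24.9 to 26.8), beside 0.811% of all genes high in that library. del7 replicate 3 was low for Oas1a (1.54 against 2.61 to 2.66), Rsad2 (8.26 against 11.8 to 12.5) and Gbp7 (26.9 against 38.7 to 40.8), beside 0.513% of all genes low there. In del7_WT replicate 1 Oasl2 was low (5.18 against 8.32 to 8.46), beside 0.367% of all genes low there. What sets these libraries apart was not tested.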

How the results depend on the processing

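The 0 calls among 39 members held in every fit run, numbering 19 (AUG), 20 (del7), 24 (difference) and 17 (wild types); the smallest adjusted p over them were 0.196 (Oas2), 0.582 (Iigp1), 0.459 (Oas2) and 0.106 (Irf7). The replicate numbers were not taken to pair the samples, since the labels give them no shared source and not every pair's correlation was over 0.1: same-numbered libraries gave -0.16 to 0.35 for AUG and AUG_WT (other numbers 0.002 in the mean) and 0.09 to 0.28 for del7 and del7_WT (other numbers -0.07). In neither pair of groups did every library correlate best with its own number. In del7 and del7_WT, libraries numbered 1, 2 and 3 did so, at 0.18, 0.27 and 0.28, and number 4, at 0.09, did not. In AUG and AUG_WT only number 4 did, at 0.35. Between AUG and del7 same-numbered libraries gave 0.06 to 0.28 (other numbers -0.06), and between AUG_WT and del7 0.096 to 0.23 (other numbers -0.05). Between AUG and del7_WT they gave 0.002 to 0.105 (other numbers -0.02), and between AUG_WT and del7_WT -0.07 to 0.06 (other numbers -0.0008). Whether libraries of the same number share a source was not tested. With the replicate block, 0 members in AUG and 4 in the wild types were under an unadjusted p of 0.05, and 2 and 1 of all genes were called in the difference and the wild types. Among all genes, calls in AUG, del7, the difference and the wild types were 9, 1, 6 and 70 with DESeq2; the difference had 2 with limma, and the wild types 3 with unstranded counts, 11 without a filter and 13 with the groups alone. Members under an unadjusted p of 0.05 in AUG were 2 without a filter, 0 with limma and 0 with groups alone; del7 had 1 with groups alone, and the wild types 4 with limma. With all 8 wild types as control the gamma-like median of del7 was -0.46; with AUG_WT replicate 1 left out of them, an alternative added after seeing the data, it was -0.05, and the AUG medians were 0.019 (type I-like) and 0.32 (gamma-like). Without both AUG_WT replicate 1 and AUG replicate 2, members under that p were 0 in AUG, 1 in del7 and 0 in the wild types. Of all 14528 genes tested there, 810, 853 and 1106 were under it. Genes called were 2 in the difference and 13 in the wild types, and the gamma-like median of the wild types was 0.024. The element followed by C in place of the element alone gave 46.7% of members. Leaving out 1 library at a time, the gamma-like median ran from -0.73 to 0.36 in AUG, from -0.73 to 0.35 in the difference and from 0.024 to 1.005 in the wild types. The members under an unadjusted p of 0.05 ran from 0 to 13 in AUG, 0 to 4 in the difference and 0 to 20 in the wild types, and genes called from 1 to 2 in the difference and 1 to 10 in the wild types. Among these fits, the share of all genes at that unadjusted p was computed only without AUG_WT replicate 1. Of the other alternatives above, only the one without both libraries has such a share. RLE scaling kept AUG_WT replicate 1 as the highest library for 28 members.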
